A study of Mus musculus with 11 samples.

Results

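The 9 genes described here carry fatty acids into mitochondria, oxidize them there, or respond to the nuclear receptor that controls this programme. They are Ppara, Cpt1a, Cpt1b, Cpt2, Acadvl, Acadl, Acadm, Pdk4 and Angptl4. They were taken by gene name, and all 9 were found among the 54532 genes listed for the pancreas and the 46078 listed for adipose tissue. The question asked of them was how their RNA level differed between control mice and mice with obesity-related alcohol-induced acute pancreatitis (OA-AP) in the pancreas and in the visceral fat.

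Long-chain fatty acids enter the mitochondrial matrix as acylcarnitines, made by carnitine palmitoyltransferase 1 (Cpt1a in most tissues, Cpt1b in muscle) and turned back into acyl-CoA by Cpt2. The acyl-CoA dehydrogenases Acadvl, Acadl and Acadm then take the first step of beta-oxidation on chains of very long, long and medium length. PPAR-alpha, the product of Ppara, is a fatty acid-sensing nuclear receptor that pairs with RXR and drives these genes during fasting, together with Pdk4, a kinase that switches off pyruvate dehydrogenase and so spares glucose, and Angptl4, a secreted inhibitor of lipoprotein lipase. Glucocorticoids and the related receptors PPAR-delta and PPAR-gamma also act on Pdk4 and Angptl4.

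All mice were male, wild type and of the strain given as C57BL/6 in the labels and C57BL/6J in the study's methods, and their age is given as 16 weeks. Control mice were kept for 12 weeks on chow with 10 kcal% fat and were injected with saline, whereas OA-AP mice received a diet with 60 kcal% fat for the same time and 2 intraperitoneal injections of ethanol at 2 g/kg, 1 h apart. Pancreas and epididymal fat were collected 12 h after the first injection, and sequencing covered 2 control and 3 OA-AP pancreata as well as 3 fat pads of each group. Diet, ethanol and pancreatitis therefore changed together, and their parts in any difference cannot be told apart. Nothing in the labels ties the libraries to named animals, so each library was counted as 1 sample. The p-values weigh the difference between groups against the spread between these samples, estimated for each gene with information from the other genes. If pancreas and fat came from the same mice, the main comparison of the tissues takes no account of it.

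Pancreas libraries held 14188832 to 17238919 counts and adipose libraries 20825177 to 27928097. The tissue labels matched the defining markers, with 10 acinar genes taking 51.7% and 53.2% of counts in control pancreata and 40.7% to 44.2% in OA-AP pancreata, and 9 adipocyte genes taking 3.5% to 4.80% in fat. The second control fat library stood apart through acinar RNA, at 0.648% of its counts against at most 0.00162% in the other 5. In the pancreas, TMM scaling lowered OA-AP levels relative to plain library totals. With totals alone the median change over the tested genes (log2) was 0.75 instead of 0.04, and the split of upregulated and downregulated genes was 5843 to 506 instead of 2090 to 1744. In adipose tissue the split was 1365 to 2885 with totals alone and 1915 to 2066 with TMM.

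The promoters of 5 members are shown because 4 of them (Pdk4, Cpt1a, Cpt2 and Acadl) were upregulated together in the pancreas and the fifth, Acadm, was not. Sequences are from RefSeq on GRCm38.p6, are written 5' to 3' on the strand of the gene, and hold the 250 bases before its RefSeq start, less any base inside the extent of the deposited gene, which shortens Pdk4 to 219 bases and Cpt2 to 229. Capitals mark matches on either strand to the PPAR-type repeat AGGTCANAGGTCA with up to 3 mismatches, to the single core AGGTCA of that repeat, to the GC box GGGCGG and to the CCAAT box.
Pdk4, chr6:5496310-5496528 (-): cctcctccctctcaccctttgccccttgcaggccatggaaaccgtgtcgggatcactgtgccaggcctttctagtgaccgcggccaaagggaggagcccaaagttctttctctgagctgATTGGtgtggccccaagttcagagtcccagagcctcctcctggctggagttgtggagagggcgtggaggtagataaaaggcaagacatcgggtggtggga
Cpt1a, chr19:3323051-3323300 (+): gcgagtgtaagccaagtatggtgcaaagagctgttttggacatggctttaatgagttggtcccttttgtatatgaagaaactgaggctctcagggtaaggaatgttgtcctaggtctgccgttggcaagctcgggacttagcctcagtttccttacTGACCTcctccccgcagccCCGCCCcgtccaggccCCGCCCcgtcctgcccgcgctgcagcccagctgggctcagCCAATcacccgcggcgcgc
Cpt2, chr4:107923611-107923839 (-): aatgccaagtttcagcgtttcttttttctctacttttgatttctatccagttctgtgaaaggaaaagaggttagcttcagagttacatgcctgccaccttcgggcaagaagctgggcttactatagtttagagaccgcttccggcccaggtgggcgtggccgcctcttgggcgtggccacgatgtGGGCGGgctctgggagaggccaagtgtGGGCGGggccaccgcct
Acadl, chr1:66863310-66863559 (-): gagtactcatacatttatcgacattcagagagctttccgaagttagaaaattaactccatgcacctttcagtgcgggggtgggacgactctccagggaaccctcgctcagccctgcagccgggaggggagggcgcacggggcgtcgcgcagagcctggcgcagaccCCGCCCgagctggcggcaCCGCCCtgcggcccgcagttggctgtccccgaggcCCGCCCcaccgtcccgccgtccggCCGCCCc
Acadm, chr3:153944644-153944893 (-): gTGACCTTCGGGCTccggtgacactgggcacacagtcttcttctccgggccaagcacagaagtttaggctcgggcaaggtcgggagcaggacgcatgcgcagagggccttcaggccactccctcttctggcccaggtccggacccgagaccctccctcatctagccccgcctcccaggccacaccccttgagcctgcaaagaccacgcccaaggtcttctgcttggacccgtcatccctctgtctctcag
Of the 9 members, 7 had a promoter sequence to scan. Cpt1b and Angptl4, the latter also upregulated in the pancreas, had none. The window of Ppara lies inside the extent of the deposited gene. The exact repeat AGGTCANAGGTCA was in none of these 7 windows and in 0.0335% of 32851 promoter windows of the same length. With up to 3 mismatches it matched 1 of the 7, Acadm (TGACCTTCGGGCT on the opposite strand, 249 to 237 bases before the start), and 21.3% of all windows. This match contains the AGGTCA core of Acadm. The core alone was found in Acadm, Acadvl and Cpt1a, 3 of 7, against 14% of all windows. GC boxes were found in Acadl, Cpt1a, Cpt2 and Ppara, 4 of 7 against 32.7%, and a CCAAT box in Cpt1a and Pdk4, 2 of 7 against 33.8%. The 4 scanned promoters of genes upregulated in the pancreas thus had no motif of these in common within 250 bases. Sequence outside these windows was not scanned, and such letter matches are descriptions and not binding sites.

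In the pancreas, Pdk4 and Angptl4 rose from low levels by more than 50-fold, the transport genes Cpt1a and Cpt2 roughly doubled, Acadl tripled, and Ppara, Acadvl and Acadm did not pass the test. Of the 8 members with enough counts to be tested, 5 were differentially expressed genes (DEGs: adjusted p below 0.05 in edgeR's quasi-likelihood test and a fold change of at least 1.5), all upregulated. Among all 12884 tested genes, 29.8% were DEGs and 16.2% were upregulated DEGs. The control and OA-AP libraries did not overlap for 7 of the 8 tested members, against 62.3% of all tested genes. The unit of level is CPM, in which TMM factors put the libraries on 1 scale, and in whole tissue a change in the share of a cell type and a change of RNA per cell cannot be told apart.

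Pdk4, on chr6:5483351-5496309 (GRCm38, as are all coordinates here), had 5.15 and 3.69 CPM in the control pancreata and 261, 202 and 329 CPM in the OA-AP pancreata. Every OA-AP library thus lay far above both controls, and the mean went from 4.42 ± 1.03 (SD, n = 2) to 264 ± 63.6 CPM (n = 3). The log2 fold change was 5.89 ± 0.30 (SE), a 59.4-fold increase (adjusted p = 4.28e-05), and 16 of the 12884 tested genes had a smaller p-value. Angptl4, on chr17:33773750-33781575, was barely detected in control pancreas, with 17 and 6 counts or 1.46 and 0.598 CPM. The OA-AP pancreata had 62.5, 42.1 and 73.9 CPM, with no overlap. Its log2 fold change was 5.81 ± 0.41, or 56.1-fold (adjusted p = 0.000182). Because its control level rests on so few counts, the size of this fold is less certain than its direction, and it ran from 5.35 to 6.62 on the log2 scale when each pancreas library was left out in turn. The entry of Angptl4 into the test may also rest on the OA-AP libraries, where it is high.

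Among the adipocyte markers, Pnpla2 went from 18.6 CPM in the control mean to 130 CPM in the OA-AP mean, and Lipe from 4.78 to 11.4 CPM. The summed level of 9 adipocyte genes was 47.0 and 61.8 CPM in control pancreata and 135 to 271 CPM in OA-AP pancreata. Of the 3 that could be tested 2, Pnpla2 and Lipe, were upregulated, against 16.2% of all tested genes. In the 5 pancreas libraries 2 to 5 of the 9 adipocyte genes had no count. Adipoq had 0 to 1 counts, Plin1 0 to 3, Cidec 0 to 4, Cfd 1 to 4, Lep 0 to 3 and Retn 0. Fabp4 had 30.8 CPM in control and 47.9 CPM in OA-AP pancreata (adjusted p = 0.208). The part of fat cells in the members' changes was not tested. The summed level of acinar cell markers was 652600 and 762700 CPM in control and 309100 to 398100 CPM in OA-AP pancreata. Of these 10 genes 7 were downregulated DEGs, against 13.5% of all tested genes, and their part in the members' changes was not tested. Neutrophil markers were highest in the third OA-AP pancreas, at a sum of 105 CPM against 1.37 to 13.0 CPM elsewhere. Without that library Pdk4 changed by 5.65 and Angptl4 by 5.57 on the log2 scale, and both kept their call. The first and second OA-AP pancreata still had sums of 13.0 and 3.49 CPM, against 1.37 and 2.39 CPM in control. The part of neutrophils in these changes was not tested.

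Of the carnitine transferases, Cpt1a (chr19:3323301-3385732), the rate-setting enzyme of mitochondrial fatty acid entry outside muscle, had 33.8 and 41.3 CPM in control and 70.6, 73.3 and 93.5 CPM in OA-AP pancreata. The groups did not overlap, and the log2 fold change was 1.08 ± 0.17 (2.11-fold, adjusted p = 0.00294). This call was the least secure of the 5, since without the first control library the change was 0.94 with an adjusted p of 0.0519. Cpt2 (chr4:107903981-107923610), which acts on the inner membrane, had 8.49 and 12.7 CPM in control and 24.2, 22.6 and 26.9 CPM in OA-AP pancreata. Its lowest OA-AP value was well above its highest control value, and it rose by 1.22 ± 0.20 on the log2 scale (2.33-fold, adjusted p = 0.00298). Cpt1b (chr15:89416405-89425863), the muscle form, had 0 counts in both control libraries and 4, 4 and 1 counts in the OA-AP libraries, too few to test. A count of 0 allows up to 3 counts, so a difference was not detectable at this depth.

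The acyl-CoA dehydrogenases differed among themselves. Acadl (chr1:66830839-66863277), which takes long chains, had 20.0 and 20.3 CPM in control and 71.3, 63.3 and 56.6 CPM in OA-AP pancreata. It had tight controls and no overlap, and it rose by 1.66 ± 0.15 on the log2 scale (3.16-fold, adjusted p = 0.000284). A processed pseudogene, Gm15793, lies within Acadl on the same strand and collected 9 pancreas counts. Acadvl (chr11:70010183-70015411), for very long chains, had 15.7 and 15.9 CPM in control and 12.2, 14.0 and 9.78 CPM in OA-AP pancreata. All 3 OA-AP values were below both controls, but the log2 fold change of -0.39 ± 0.18 did not pass the test (adjusted p = 0.134), and with library totals alone it was 0.33. Acadvl overlaps Dvl2 on the opposite strand, and the strand setting of the counting is not given in the sources used here, so part of its reads cannot be told apart from those of Dvl2. Acadm (chr3:153922357-153944632), for medium chains, had 28.2 and 24.5 CPM in control and 26.5, 33.2 and 10.1 CPM in OA-AP pancreata. The third OA-AP library was low and the other two lay around the controls. Its log2 fold change was -0.185 ± 0.48 (adjusted p = 0.795), which turned to 0.55 with library totals alone and to 0.13 without that library.

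Ppara itself (chr15:85734983-85802819) was scarce in the pancreas, with 3.26 and 3.79 CPM in control and 1.84, 2.06 and 0.732 CPM in OA-AP libraries. All OA-AP values were below both controls, but they rest on 35, 36 and 14 counts, against 38 and 38 in the control libraries. With library totals of 14188832 to 17238919, the gap of the first and second OA-AP libraries came mostly from TMM scaling. The log2 fold change was -1.19 ± 0.45 (adjusted p = 0.0743). The call depended on the setting: the adjusted p was 0.0374 without the third OA-AP library and 0.0373 with no filter on low counts. In CPM no OA-AP pancreas had more Ppara RNA than a control. While 5 other members were upregulated, Acadm and Acadvl were not called, and Fgf21, another target described below, was downregulated.

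**Figure D1:**
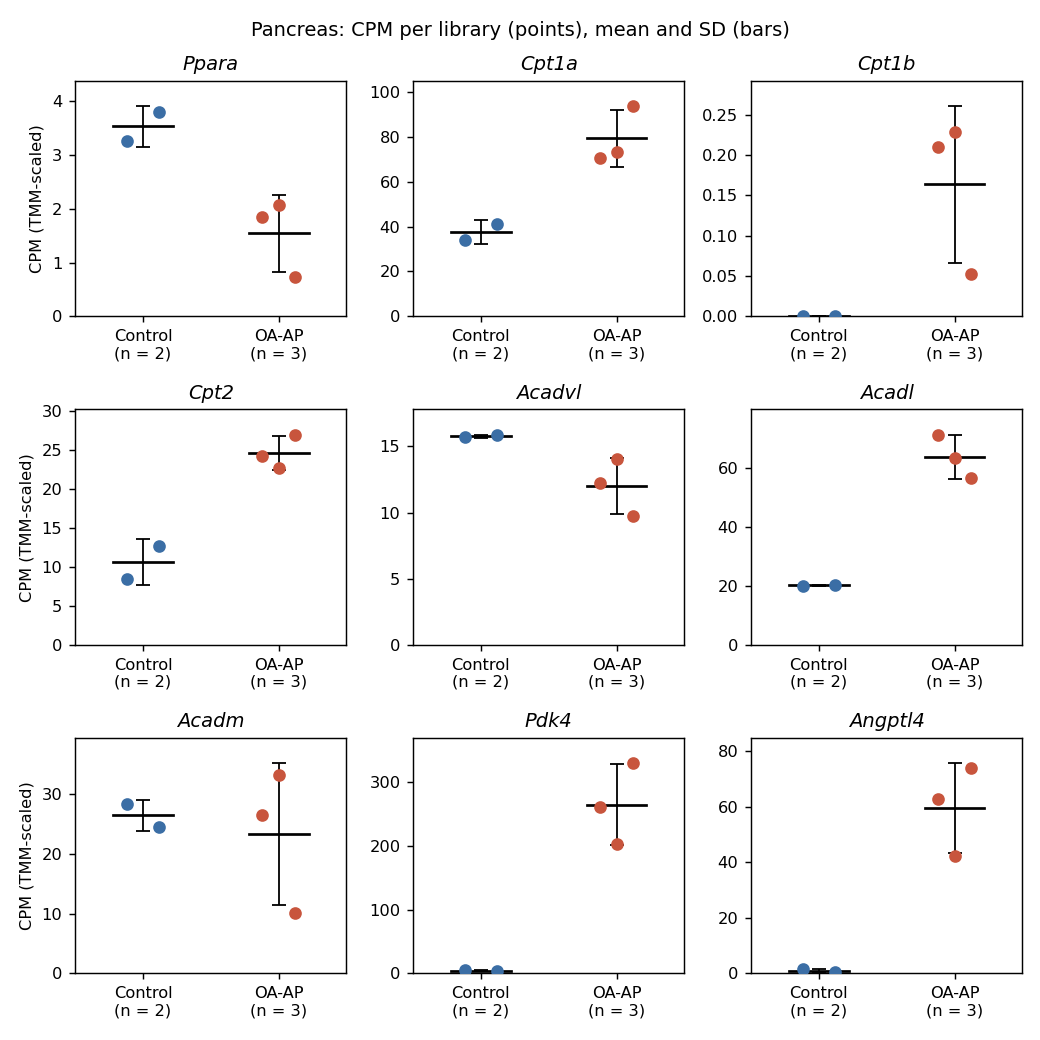
Levels of the 9 members in the pancreas, one panel per gene, with TMM-scaled CPM on a linear axis from 0 in each panel. Points are libraries, with lines and bars for mean and SD (control n = 2, OA-AP n = 3); Pdk4 goes from 3.69 to 5.15 CPM in control to 202 to 329 CPM in OA-AP, while the groups overlap for Acadm.

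In epididymal fat, Pdk4 and Angptl4 rose again, and the transport and dehydrogenase genes showed no increase that passed the test. Of the 8 members tested, 2 were DEGs, both upregulated, where 25.1% of all 15839 tested genes were DEGs and 12.1% were upregulated DEGs. The share of members called, 25%, was that of all genes. The groups did not overlap for 3 of the 8, against 52.4% of all tested genes.

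Pdk4 had 53.4, 112 and 58.8 CPM in the control fat pads and 435, 699 and 584 CPM in the OA-AP fat pads. The second control was about as far above the other controls as they were above 0, and all OA-AP values were higher still. The log2 fold change was 2.94 ± 0.34 (7.66-fold, adjusted p = 0.0016). That same control library carried the acinar RNA, and without it the change in Pdk4 was 3.36 (adjusted p = 0.0017). Angptl4 was already abundant in control fat, with 486, 603 and 418 CPM, and had 1200, 1555 and 1184 CPM in OA-AP fat. Without overlap, it rose by 1.39 ± 0.19 on the log2 scale (2.61-fold, adjusted p = 0.00222), and by 1.55 without the second control library (adjusted p = 0.00546).

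Neutrophil markers moved with both genes in fat. All 6 tested neutrophil genes were upregulated, against 12.1% of all tested genes. Their summed level with the remaining one was 7.12 to 13.4 CPM in control and 150 to 231 CPM in OA-AP fat. Their part in the change of Pdk4 and Angptl4 was not tested. Of the 9 adipocyte markers 3 were DEGs in fat (33.3%, against 25.1% of all tested genes). Lep was upregulated (2.38 on the log2 scale, adjusted p = 0.0301), and Plin1 (-1.47, 0.00379) and Cfd (-1.22, 0.0489) were downregulated. Adipoq was not called (-0.26, 0.221).

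Cpt1a had 84.3, 101 and 90.2 CPM in control and 75.2, 99.5 and 87.2 CPM in OA-AP fat. The groups overlapped almost fully, with a log2 fold change of -0.07 ± 0.13 (adjusted p = 0.675). Cpt2 had 151, 130 and 139 CPM in control and 193, 117 and 139 CPM in OA-AP fat, with the OA-AP libraries on both sides of the controls (0.09 ± 0.18, adjusted p = 0.715). Acadl had 212, 224 and 238 CPM in control and 282, 240 and 221 CPM in OA-AP fat (0.14 ± 0.12, adjusted p = 0.39). These 3 genes, upregulated in the pancreas, had estimates near 0 in fat, and with library totals alone those of Cpt2 (-0.06) and Acadl (-0.01) were negative. Acadvl had 82.5, 70.2 and 78.6 CPM in control and 78.5, 63.4 and 60.1 CPM in OA-AP fat (-0.195 ± 0.12, adjusted p = 0.253).

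Acadm had 378, 367 and 327 CPM in control and 252, 294 and 214 CPM in OA-AP fat. Every OA-AP value was below every control, and the log2 fold change of -0.495 ± 0.14 had an adjusted p of 0.0315. The fold change of 1.41 was under 1.5, so Acadm was not a DEG. Ppara had 6.79, 3.69 and 5.65 CPM in control and 2.38, 4.09 and 2.47 CPM in OA-AP fat. The second library of each group overlapped the other group, and the change of -0.85 ± 0.31 did not pass the test (adjusted p = 0.0662). It did pass with DESeq2 (adjusted p = 0.0444) and without the second control (0.0433) or the second OA-AP library (0.024). Cpt1b had 3, 6 and 9 counts in control and 2, 7 and 3 counts in OA-AP fat and was not tested. Skeletal or cardiac muscle markers summed to 8.30 to 34.9 CPM in control and 24.8 to 153 CPM in OA-AP fat. Most of this sum was Acta1 (17.4 and 82.3 CPM in the means, adjusted p = 0.066), whereas Mylpf was downregulated (-1.65, adjusted p = 0.0111). Their part in the Cpt1b counts was not tested.

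**Figure D2:**
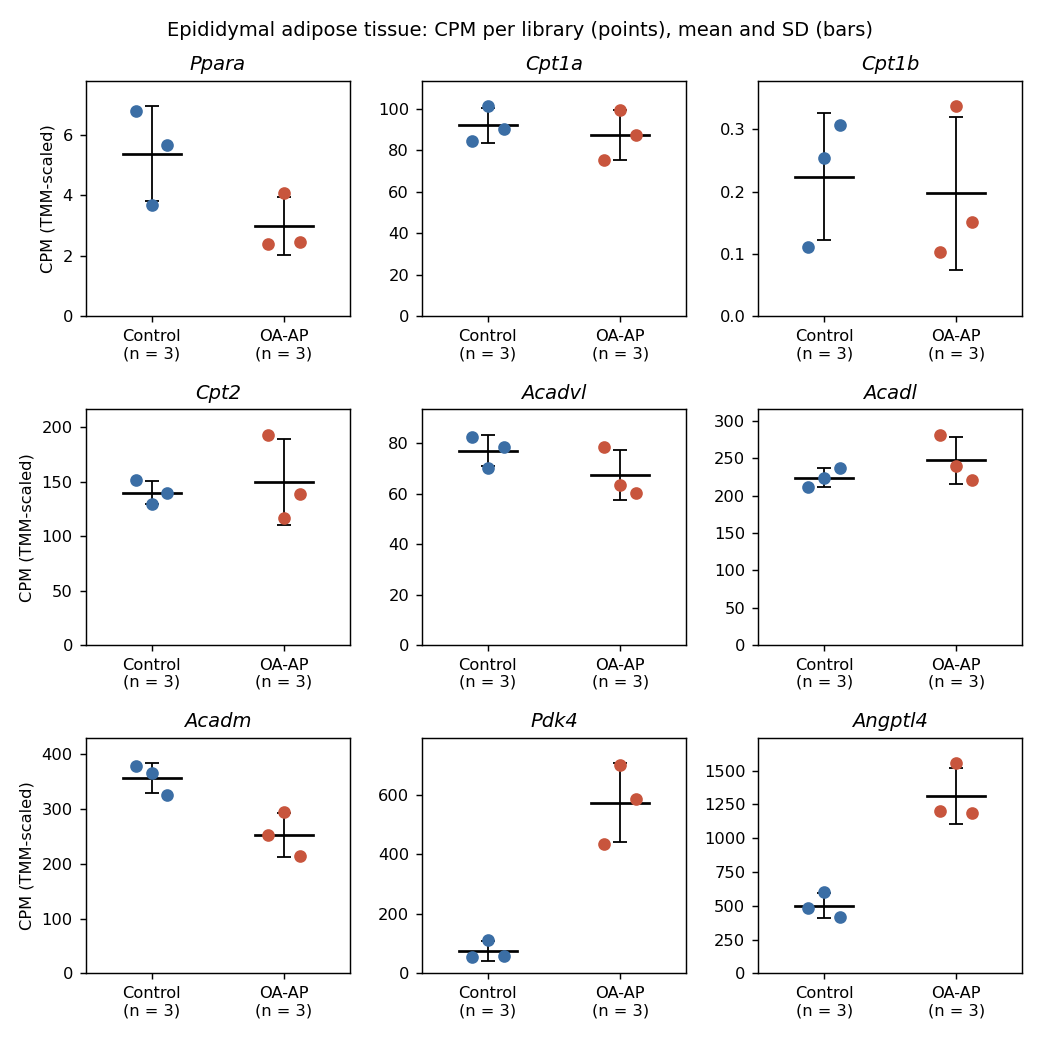
Levels of the 9 members in epididymal adipose tissue, drawn as for the pancreas with TMM-scaled CPM on linear axes (control n = 3, OA-AP n = 3; lines and bars are mean and SD). Pdk4 goes from 53.4 to 112 CPM in control to 435 to 699 CPM in OA-AP, and control and OA-AP points of Cpt1a, Cpt2, Acadl, Acadvl and Ppara overlap.

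The change in OA-AP was compared between the tissues directly, with the tissue-by-condition term over all 11 libraries. It differed for 5 of the 8 tested members, and in all 5 the change was less positive in fat than in pancreas. Of 17046 tested genes 21.3% differed, 10.5% in this direction. The difference (change in fat minus change in pancreas, log2) was -4.44 ± 0.46 for Angptl4 (adjusted p = 0.000102), -2.96 ± 0.50 for Pdk4 (0.00204) and -1.53 ± 0.19 for Acadl (0.000247). It was -1.16 ± 0.23 for Cpt1a (adjusted p = 0.00413) and -1.14 ± 0.28 for Cpt2 (0.0134). Without the first control pancreas the difference for Cpt2 no longer passed (adjusted p = 0.0888). For Ppara (0.34 ± 0.58, adjusted p = 0.743), Acadm (-0.32 ± 0.49, adjusted p = 0.715) and Acadvl (0.19 ± 0.22, adjusted p = 0.603) no difference was detected, with errors wide enough to leave room for one, and the differences for Ppara and Acadvl were negative with library totals alone (-0.53 and -0.67). Angptl4 and Pdk4 started from much lower levels in the pancreas than in fat. In CPM the increase of Angptl4 was larger in fat, from 502 ± 93.5 to 1313 ± 210, than in pancreas, from 1.03 ± 0.609 to 59.5 ± 16.1, on scales set within each tissue. So was that of Pdk4, from 74.8 ± 32.5 to 572.5 ± 132.6 in fat and from 4.42 ± 1.03 to 264 ± 63.6 in pancreas.

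**Figure D3:**
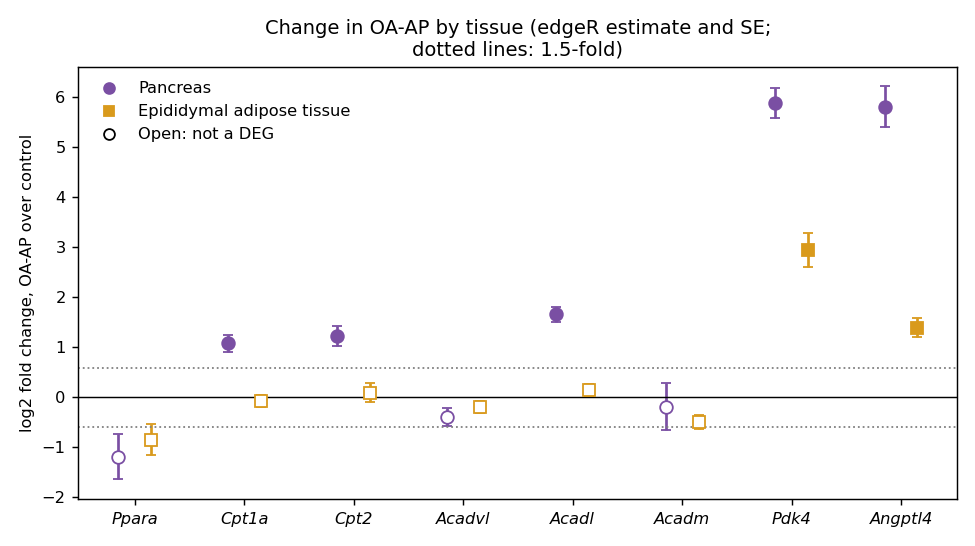
Log2 fold change of OA-AP over control (vertical axis) for the 8 tested members in pancreas (circles) and adipose tissue (squares), with edgeR estimates and SE as bars, filled for DEGs. Pdk4 lies at 5.89 in pancreas and 2.94 in adipose tissue, and Cpt1a, Cpt2 and Acadl are filled in pancreas and near 0 in adipose tissue.

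Per length of the gene model, the order of the members differed between the tissues and between the conditions. In control pancreas Acadl was highest at 10.1 ± 0.122 CPM per kb, followed by Cpt1a at 8.73, Acadm at 6.74, Acadvl at 5.87 and Cpt2 at 4.42. Pdk4 (1.26), Ppara (0.919) and Angptl4 (0.313) were at the bottom, Cpt1b was at 0, and no neighbours in this order overlapped. In OA-AP pancreas Pdk4 led at 75.2 ± 18.1 CPM per kb, above Acadl at 31.8, with Cpt1a (18.4) and Angptl4 (18.1) indistinguishable in their ranges. Cpt2 followed at 10.3, Acadm (5.94) and Acadvl (4.47) overlapped, and Ppara lay at 0.402.

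In control fat Angptl4 was highest at 153 ± 28.5 CPM per kb, then Acadl at 112, Acadm at 91.2, Cpt2 at 58.6 and Acadvl at 28.7. Cpt1a (21.4) and Pdk4 (21.3) overlapped, and Ppara was at 1.40. In OA-AP fat Angptl4 stood at 400 ± 63.7 CPM per kb, and Pdk4 at 163 had moved up to overlap Acadl at 123. Acadm (64.7) and Cpt2 (62.5) overlapped, as did Acadvl (25.1) and Cpt1a (20.3), and Ppara (0.777) stayed below all of them but Cpt1b (0.0585). The receptor was the scarcest member but Cpt1b in 3 of the 4 groups, all but control pancreas, where Angptl4 was lower still. Gene lengths are those of the deposited pancreas table.

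**Figure D4:**
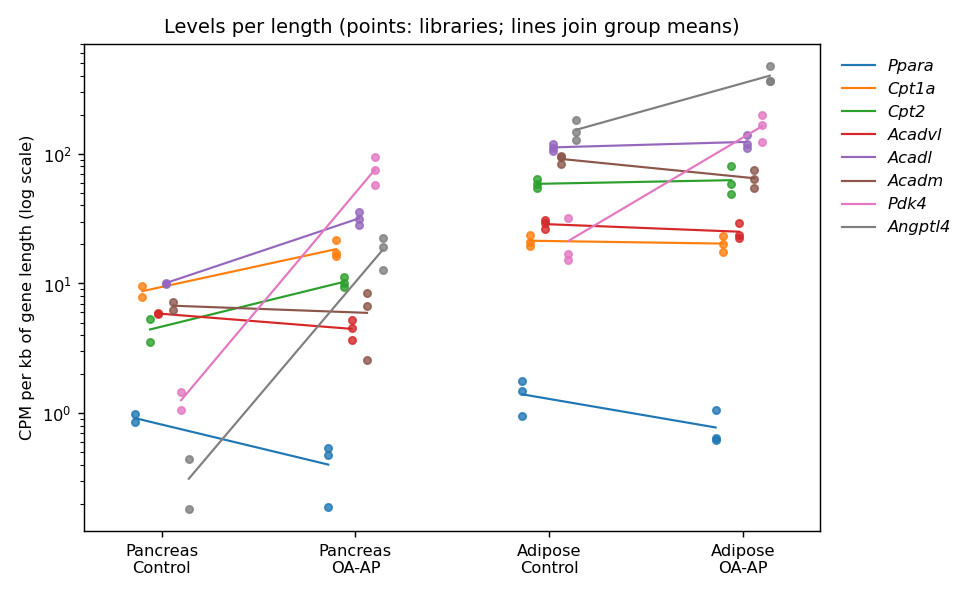
CPM per kb of gene length (log scale) of 8 members in the 4 groups, with points for libraries and lines joining group means within each tissue. Pdk4 passes from 1.26 to 75.2 CPM per kb in pancreas and from 21.3 to 163 in adipose tissue, and Ppara stays at 1.77 or below throughout.

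Among the 8 lists of other pathway genes, that of further PPAR-alpha targets had the highest median change in the pancreas. Of 14 tested genes in a list of 23 further targets, 9 were upregulated and 1 was downregulated (71.4% DEGs, median log2 fold change 2.84, against 29.8% and 0.04 for all tested genes). The list shares 5 genes with the lists that follow. Acot4 and Creb3l3 had 3 counts or fewer in each control library and could enter the test only through OA-AP libraries. Without these 2 genes 7 of 12 were upregulated and 1 downregulated (66.7%, median 2.22). Plin5, low in the control libraries (0.601 and 0.997 CPM), is still among the 12 and may also have entered through OA-AP libraries. With all 14 the median was 2.63 with Acot4, which had no control count and was at least 5.94-fold higher in OA-AP, set at its bound against 3 counts in each control library.

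The acyl-CoA thioesterases Acot1 (1.21 to 48.3 CPM in the means, 5.32 ± 0.47, adjusted p = 0.000502) and Acot2 (1.19 to 10.1 CPM, 3.07 ± 0.28, adjusted p = 0.000285) rose. So did Plin2, a coat protein of lipid droplets, from 2.15 and 2.29 CPM to 34.2, 29.8 and 66.7 CPM (4.29 ± 0.47, adjusted p = 0.00129). The downregulated target was Fgf21, a fasting hormone that the exocrine pancreas also makes, with 19.1 and 15.4 CPM in control and 0.787, 0.458 and 1.78 CPM in OA-AP pancreata (-4.07 ± 0.42, adjusted p = 0.000628). It was named after its values were seen. The hepatic targets Cyp4a10, Cyp4a12a, Cyp4a14, Cyp4a31 and Fabp1 and the muscle target Ucp3 had 0 counts in every pancreas library.

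The mitochondrial steps did not move one way in the pancreas. Of 18 further beta-oxidation genes 4 were upregulated and 4 downregulated (44.4%, median -0.27). Eci2, an enoyl-CoA isomerase, rose by 1.06 ± 0.18 on the log2 scale (adjusted p = 0.00328), and Hadhb, the thiolase subunit of the trifunctional protein, rose by 0.96 ± 0.18 (0.00486). Its partner subunit Hadha had a change of 0.60 ± 0.20 (adjusted p = 0.0531). Hadh, which handles shorter chains, had 45.8 and 50.7 CPM in control and 14.9, 19.0 and 8.84 CPM in OA-AP pancreata (-1.76 ± 0.28, adjusted p = 0.00364). Etfa, a subunit of the flavoprotein that takes the electrons from the acyl-CoA dehydrogenases, fell by 0.82 on the log2 scale (adjusted p = 0.00443).

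Of 13 genes of fatty acid activation and transport 3 were upregulated and 1 downregulated (30.8%, near the 29.8% of all tested genes, median 0.66). The carnitine importer Slc22a5 rose from 4.80 and 4.79 CPM to 15.7, 16.7 and 13.5 CPM (1.67 ± 0.19, adjusted p = 0.000611). The other increases were those of Mlycd (0.88 ± 0.14, adjusted p = 0.00306) and Acacb (0.80 ± 0.14, adjusted p = 0.00438), which remove and make malonyl-CoA, the inhibitor of Cpt1. Slc25a20, which exchanges acylcarnitine for carnitine between Cpt1a and Cpt2, had a change of 0.40 (adjusted p = 0.181). Of 12 tested peroxisomal genes 50% were DEGs. In this list 4 were upregulated, Hsd17b4 among them (1.31 ± 0.15, adjusted p = 0.000625), and 2 were downregulated, Scp2 among them (-0.95 ± 0.17, adjusted p = 0.00489). Of the 5 ketone body genes 1 was upregulated and 2, Oxct1 and Bdh1, were downregulated (60% DEGs in this short list). Oxct1, which opens ketone body use, had 23.2 and 25.1 CPM in control and 5.30, 4.46 and 4.50 CPM in OA-AP pancreata (-2.34 ± 0.16, adjusted p = 9.97e-05), and Bdh1 changed by -1.90 ± 0.58 (0.0374).

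Among 13 tested nuclear receptors and cofactors 3 were upregulated and 1 downregulated (30.8%, near the 29.8% of all tested genes). Rxra, the partner of the PPARs, rose from 34.2 and 31.4 CPM to 102, 97.0 and 96.7 CPM (1.59 ± 0.13, adjusted p = 0.000197), and Rxrb rose by 1.15 ± 0.14 (0.000842). Ppargc1a, a coactivator of PPAR-alpha, fell by 2.87 on the log2 scale (adjusted p = 0.00718). The sister receptors Ppard (0.165, adjusted p = 0.573) and Pparg (-0.48, adjusted p = 0.407; 0.25 with library totals alone) were not called. None of the 11 genes of the pyruvate dehydrogenase complex and its regulators other than Pdk4 was a DEG in edgeR or DESeq2, and 2 had an unadjusted p under 0.05 in edgeR. The other kinases Pdk1 (-0.13, adjusted p = 0.585) and Pdk2 (0.30, adjusted p = 0.156) were not called, and those 2, the subunits Pdha1 (adjusted p = 0.0349) and Pdhb (0.0397), passed on p but not on fold. With library totals alone 3 of the 11 were DEGs, Pdk1 at 0.59 (adjusted p = 0.0418) among them.

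A further list joined genes of lipoprotein lipase, the target of Angptl4, with other genes of the Angptl family. Of its 5 tested genes 1 was upregulated and 3 were downregulated (80%, against 29.8% of all tested genes). Lpl itself had 81.2 and 87.6 CPM in control and 25.2, 33.3 and 17.9 CPM in OA-AP pancreata (-1.73 ± 0.23, adjusted p = 0.00161). The Angptl family genes Angptl2 (-3.78 ± 0.36, adjusted p = 0.000336) and Angptl8 (-1.48 ± 0.29, adjusted p = 0.00662) fell, whereas Angptl4 rose.

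Several of these pancreas calls rest on both controls. Those of Acacb, Angptl8, Etfa, Ppargc1a and Bdh1 were lost without either control library (adjusted p of 0.0501 to 0.248), that of Eci2 without the first (0.0542), and those of Hadhb (0.0686), Mlycd (0.0548) and Scp2 (0.0684) without the second. Bdh1 was also lost without the first OA-AP library (adjusted p = 0.0781) and with DESeq2 (0.0794). With library totals alone Angptl8, Bdh1, Etfa and Scp2 were not called, and Hadha, Pdk2, Ppard and Slc25a20 were called upregulated. Hadha was also called with DESeq2 (0.0464), with no filter on low counts (0.000378) and without the third OA-AP library (0.000217).

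In fat the same lists gave mostly small changes. Of 18 mitochondrial beta-oxidation genes 1 was a DEG (5.56%, against 25.1% of all tested genes, median -0.15), and this was Hadh, with 379, 326 and 362 CPM in control and 248, 253 and 197 CPM in OA-AP fat (-0.61 ± 0.13, adjusted p = 0.0117). Hadha (-0.11, adjusted p = 0.439) and Hadhb (0.23, adjusted p = 0.156) were not called. Of 18 tested further PPAR-alpha targets 3 were upregulated and 3 downregulated (33.3%, median -0.05). Plin2 had 244, 272 and 235 CPM in control and 590, 505 and 650 CPM in OA-AP fat (1.22 ± 0.13, adjusted p = 0.0012), and Plin5, which tethers droplets to mitochondria, rose by 0.64 ± 0.15 (0.0136). Ehhadh, the peroxisomal bifunctional enzyme, had 68.4, 106 and 108 CPM in control and 47.5, 31.3 and 23.0 CPM in OA-AP fat (-1.47 ± 0.30, adjusted p = 0.0103). Acot2 fell by 0.79 on the log2 scale (adjusted p = 0.0152), against its rise in the pancreas, and Acot1 (-0.88, adjusted p = 0.215) was not called.

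Of 12 tested activation and transport genes in fat 2 were upregulated and 1 downregulated (25%, near the 25.1% of all tested genes). Acsl4 rose by 1.73 ± 0.21 (adjusted p = 0.00162) and Slc22a5 by 0.63 ± 0.12 (0.00798). Acsl1, the main acyl-CoA synthetase of fat, had 2569, 1492 and 2647 CPM in control and 1164, 728 and 1201 CPM in OA-AP fat (-1.12 ± 0.28, adjusted p = 0.0212). In 15 peroxisomal genes 1 increase and 3 decreases were called (26.7%), and among the decreases was Acaa1b (-0.78, adjusted p = 0.0107). None of the 5 ketone body genes was a DEG in edgeR or DESeq2, and 2 had an unadjusted p under 0.05 in edgeR.

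The receptors and cofactors were the list with the largest share of DEGs in fat, 7 of 15 (46.7%), with 2 upregulated and 5 downregulated. Ppargc1a had 10.8, 10.9 and 12.7 CPM in control and 3.21, 2.21 and 2.52 CPM in OA-AP fat (-2.11 ± 0.19, adjusted p = 0.000569), a decrease seen in both tissues. Rxrg had 21.4, 17.8 and 14.6 CPM in control and 3.47, 2.60 and 1.82 CPM in OA-AP fat (-2.77 ± 0.26, adjusted p = 0.000699). Ppard rose by 0.78 ± 0.09 (adjusted p = 0.00155). Pparg, the adipocyte receptor, changed by -0.39 ± 0.09 (adjusted p = 0.0177), under the 1.5-fold limit. In the pyruvate dehydrogenase list 2 of 11 genes were DEGs (18.2%), the phosphatase Pdp2 (-1.20 ± 0.19, adjusted p = 0.00382) and the kinase Pdk1 (-0.89 ± 0.23, adjusted p = 0.0258). Pdk2 did not pass the test (0.10, adjusted p = 0.726). Lpl had 10870, 10620 and 10290 CPM in control and 5102, 5682 and 5612 CPM in OA-AP fat (-0.95 ± 0.15, adjusted p = 0.00355), so that its RNA was lower in the OA-AP libraries of both tissues, where Angptl4 was higher.

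Calls in fat that did not stand without single libraries were those of Acot2 and Acsl1 (control 1 or 3), Acaa1b (control 3), Plin5 (control 3 or OA-AP 1), Slc22a5 (control 1), Hadh (control 1 or 3 or OA-AP 3) and Pdk1 (control 1 or 3 or OA-AP 2 or 3). With library totals alone Plin5 and Slc22a5 fell below 1.5-fold.

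**Figure D5:**
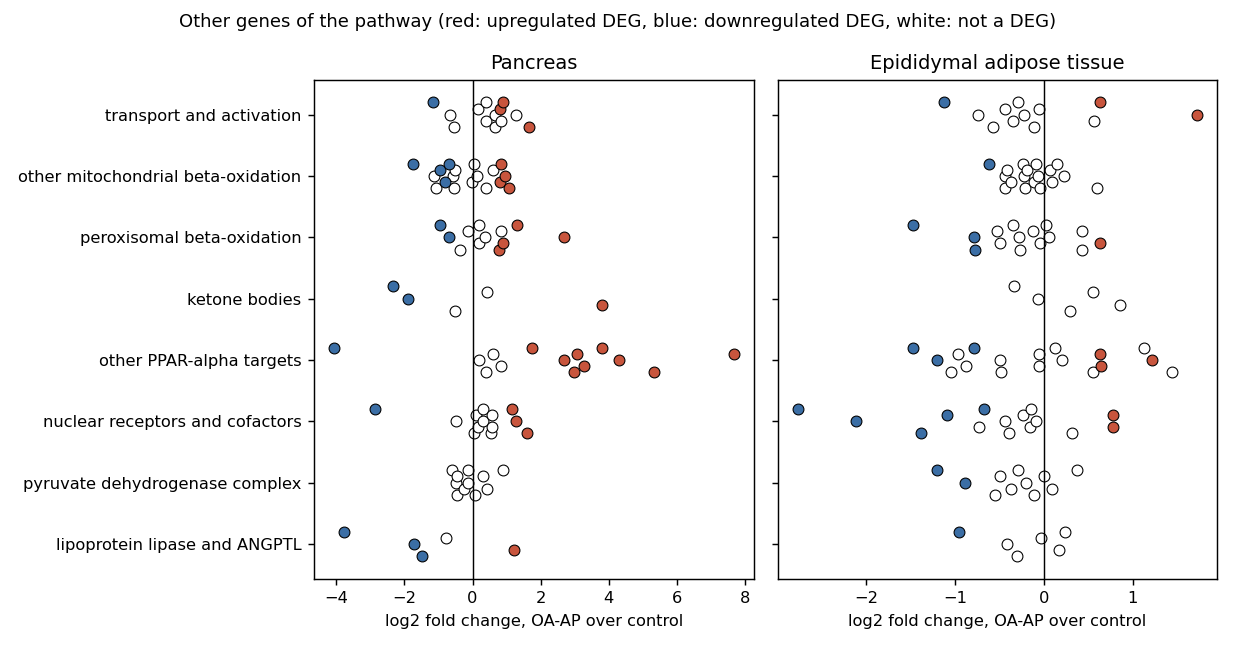
Log2 fold change of OA-AP over control for every tested gene of the 8 pathway lists in pancreas and adipose tissue (horizontal axes differ in range), coloured by call; 5 genes stand in more than one list. In the pancreas 9 of 14 further PPAR-alpha targets are upregulated (7 of 12 without Acot4 and Creb3l3), the highest point being the fitted value of Acot4, which had no control count, and the pyruvate dehydrogenase list holds no call.

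Over the 11 libraries, the 3 genes nearest in pattern to Pdk4 were Junb, Cdkn1a and Lrg1. Nearness was the root mean square difference of log2 CPM after centring each gene, which was 0.70, 0.74 and 0.79 against an SD of 2.27 for Pdk4. Those nearest to Angptl4 were Ms4a8a (0.77), Adam12 (0.89) and the lipid droplet gene Plin2 (0.93), against an SD of 2.92. Those nearest to Ppara were Crocc (0.20), 1810014B01Rik (0.28) and Mir5125 (0.30), against an SD of 0.84. These distances mix the difference between tissues with that between conditions and are a description only.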

How the data were processed

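RNA-seq counts of 11 libraries were used. Per the labels and the study's methods, reads were trimmed with Trim Galore 0.6.6, checked with fastp 0.20.1, aligned to GRCm38 with STAR and counted per gene with featureCounts 2.0.1. The authors deposited whole-number counts without normalization. The annotation release and strand setting are not given in the sources used here.

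Counts were filtered with filterByExpr, scaled with TMM and tested in each tissue apart with edgeR 4.0.16 (robust quasi-likelihood test, R 4.3.3, Benjamini-Hochberg over all tested genes). DEGs passed an adjusted p of 0.05 and changed 1.5-fold or more. The SE of each log2 fold change was obtained from its F statistic (size over root F). The tissue-by-condition term was fitted over the 45260 shared genes before filtering, with an adjusted p under 0.05. Log2 CPM used a prior count of 2. Floors of 3 counts cover counting error only, as the reads carry no molecular identifiers and so are not independent molecules. The most alike replicates differed by 6.91 chi-square per degree of freedom. The tests were tried on simulated data with 100 changed genes of each size. In the pancreas edgeR found 26 of the 2-fold and 81 of the 4-fold changes, with 14 false calls. In fat it found 47 and 80, with 7 false calls, and for the tissue-by-condition term 10 and 47, with 4. Many changes of about 2-fold can therefore go uncalled. The members, gene lists and tests were chosen with earlier results of these data known. Named genes were all members, up to 3 DEGs with the smallest p per list and tissue, and a set of pathway genes (Hadha, Hadhb, Slc25a20, Pdk1, Pdk2, Pparg, Ppard, Ppargc1a, Lpl, Plin2, Acot1, Acot2). Fgf21, Acot4, Creb3l3, Cyp4a10, Cyp4a12a, Cyp4a14, Cyp4a31, Fabp1, Ucp3, Pdha1 and Pdhb were added after their values were seen. Some further items under this rule are left unreported. The alternatives were DESeq2 1.42.0, its size factors, library totals, TMM without acinar genes, no filter, the replicate block, and each library left out in turn. Counts without genes near 0 in 1 group were added after the data were seen.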

Additional observations from a re-analysis of the deposited data

Results flagged for a closer look

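The 27 genes below were marked because the tissue-by-condition test over 11 libraries found a change in OA-AP that differed between fat and pancreas (change in fat minus change in pancreas, log2). They come from the members and the named pathway genes tested in both tissues. Many of the pathway genes were named for a small p-value within a single tissue, which favours a difference between tissues. Of all 17046 genes tested for this term 21.3% differed. For single genes, this difference was tried under other settings for the members only. Among the members these were Angptl4 (-4.44), Pdk4 (-2.96), Acadl (-1.53), Cpt1a (-1.16) and Cpt2 (-1.14), described with their errors above. Pathway genes with a more positive change in the pancreas were the PPAR-alpha targets Acot1 (-6.23, adjusted p = 0.000465), Acot2 (-3.87, 4.93e-05), Plin2 (-3.09, 0.000767) and Plin5 (-2.65, 0.000884), the receptors Rxra (-1.83, 4.99e-05) and Rxrb (-1.31, 0.000296), the carnitine and malonyl-CoA genes Acacb (-1.24, 0.0256), Mlycd (-1.12, 0.00135) and Slc22a5 (-1.05, 0.0047), and the beta-oxidation genes Ehhadh (-1.67, 0.0466), Eci2 (-0.998, 0.00389), Hsd17b4 (-0.886, 0.00279), Hadhb (-0.743, 0.021) and Hadha (-0.721, 0.0423). The change was more positive in fat for 8 genes. These were Fgf21 (5.51, adjusted p = 0.00172), Angptl2 (3.95, 0.000251), the ketone body genes Bdh1 (2.76, 0.0167) and Oxct1 (2.63, 1.14e-05), Hadh (1.14, 0.0266), Acsl4 (1.04, 0.0482), Etfa (0.958, 0.00522) and Scp2 (0.903, 0.0215). No group had more than 3 libraries, so single libraries were not tested for standing apart.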

How the results depend on the processing

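Each choice was changed alone. Of the members' alternatives, 81 of pancreas, 77 of adipose and 122 of the tissue difference kept direction and call, 1, 0 and 1 lost a call, and 2, 6 and 0 gained one; of the named pathway genes' alternatives 253 and 211 kept both, and 20 and 17 lost a call. With library totals alone there were 6349 pancreas DEGs (3834 with TMM), 4 adipose members called (2 with TMM; Ppara at -0.993 and Acadm at -0.644 joined) and 6662 genes differing between tissues (3636 with TMM). The same setting turned the pancreas changes of Acadm (0.551), Acadvl (0.325), Pdk1 (0.587) and Pparg (0.247), the adipose changes of Cpt2 (-0.0624), Acadl (-0.0108) and Pdk2 (-0.0548), and the tissue differences of Ppara (-0.533) and Acadvl (-0.668), and the nuclear receptor DEGs in the pancreas became 11 and the pyruvate dehydrogenase DEGs 3. For same-numbered samples, deviations from the group means had correlations of -0.163 to 0.0562 between conditions and -0.0115 to 0.09 between tissues. With so few libraries per group and different tissues, this cannot show whether pancreas and fat came from the same mice. The labels name no animals, so the numbers were not taken to pair samples. With the replicate block 2156 genes differed between tissues, and in the pancreas Acadm was at 0.167 and Ppard at -0.0595; the calls of all members stood, and Hadha in the pancreas was called (0.77). With each library left out in turn, pancreas DEGs ranged from 1495 to 4265 (1495 and 1687 without the second and the first control), genes differing between tissues from 2334 to 3857, pancreas members called from 4 to 6 and adipose members called from 2 to 4 (4 without the second OA-AP library). Changes of uncalled genes crossed 0 under this: in the pancreas Acadm (-0.532 to 0.127), Ppard (-0.105 to 0.301) and Pparg (-0.898 to 0.0881), in fat Cpt1a (-0.173 to 0.0304), Cpt2 (-0.126 to 0.249) and Pdk2 (-0.0368 to 0.355), and in the tissue difference Ppara (-0.0181 to 0.593) and Acadm (-0.677 to 0.025). Pathway list counts in the pancreas fell without a control library, for example to 2 of 18 for mitochondrial beta-oxidation, and in fat they ranged from 0 to 3 for that list, 2 to 6 for further PPAR-alpha targets, 1 to 5 for activation and transport and 2 to 5 for peroxisomal genes. The cause of these shifts was not tested. Depth left Cpt1b untested, and only 6 to 38 counts stood behind Ppara in each pancreas library and Angptl4 in each control pancreas.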
